A study of Mus musculus with 6 samples.

Results

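The genes described here encode the proteins of the mitochondrial ribosome. They were taken as the entries of the 3 deposited gene tables whose symbol is Mrpl or Mrps followed by a number and at most 1 letter. The rule used no expression value. It found 76 genes of the 22558 in each table. By the present nomenclature of ribosomal proteins 49 of them belong to the large subunit (Mrps18a and Mrps30 among these, in spite of their symbols) and 26 to the small subunit. The last, Mrps36, is now placed in the oxoglutarate dehydrogenase complex.

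Messenger RNA was sequenced in 6 cultures of mouse pluripotent cells at passage 25, with 1 library per culture. Embryonic stem cells (ESC) of strain 129Sv with the histone variant gene H2A.X deleted by Cre (KO ESC) were set against H2A.X Flox/Flox ESC of the same strain. Flox/Flox cells keep the gene between recombination sites. Induced pluripotent stem cells (iPSC) of mixed 129Sv/C57 background were derived from fibroblasts of the peritoneum (PF) or of the tail tip (TTF). From each parental cell type 1 line labelled 4N- was set against 1 line labelled 4N+. The iPSC samples also carry H2A.X in their names, with no genotype given. The labels do not spell out 4N; in this field the sign usually gives the outcome of tetraploid complementation, in which pluripotent cells must build the embryo inside a tetraploid host. Cells grew on feeders with LIF and were moved to gelatin-coated plates before lysis. Each group is therefore 1 culture or line, and no difference below has a replicate check within its table.

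Mitochondria carry their own ribosomes, which translate the few messages of mitochondrial DNA into core subunits of the respiratory chain and of ATP synthase. The ribosomal RNAs come from mitochondrial DNA, while in mammals every mitochondrial ribosomal protein is encoded in the nucleus, made in the cytosol and imported. Compared with bacterial ribosomes, from which they descend, mitochondrial ribosomes contain less RNA and many added proteins. Pluripotent cells rely strongly on glycolysis, and respiratory capacity generally increases as they differentiate.

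H2afx, which encodes H2A.X (mm9 chr9:44142798-44144156), stood at 6.18 FPKM in KO ESC against 34.9 FPKM in Flox/Flox ESC, the direction that the labels give. FPKM are fragment numbers divided by transcript length and sequencing depth. In the iPSC it stood at 75.2 FPKM in the 4N- PF line against 69.1 FPKM in the 4N+ PF line, and at 65.3 FPKM in the 4N- TTF line against 70.9 FPKM in the 4N+ TTF line. Effective depth recovered from the values ran from 39058800 to 61180300 fragments per library. By the length of its longest annotated transcript, a ribosomal protein gene had a median of approximately 1125 to 2407.5 fragments per library. Of the pluripotency markers, Pou5f1 stood at 166 FPKM or more and Nanog at 111 FPKM or more in each of the 6 libraries.

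Promoter windows of GRCm38.p6 from RefSeq, running from 250 bases before to 50 bases after a transcript start, were at hand for 67 of the 76 genes (73 windows). They were searched on both strands for the NRF1 core GCATGCGC, the full NRF1 site (that core with GC before it), the ETS motif CCGGAAG bound by GABPA, the YY1 motif AAGATGGC, and TATAAA. NRF1, GABPA and YY1 are known regulators of nuclear genes for mitochondrial proteins. Expressed windows are here the 6233 windows of other genes with at least 5 FPKM in both ESC libraries. The full NRF1 site was found in 3 windows (4.11%), against 0.971% of all 32851 windows and 2.57% of expressed windows. The core was in 8 windows (11%), against 2.71% of all and 6.45% of expressed windows. The ETS motif was in 24 (32.9%), against 8.86% and 21.4%. The YY1 motif was in 12 (16.4%), against 2.75% and 5.28%. TATAAA was in 5 (6.85%), against 13.6% and 6.43%. A match describes the letters in the window and is not a measured binding site.

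The 3 windows with the full NRF1 site are shown first, with each searched motif in capitals. They belong to the large-subunit genes Mrpl32 (chr13:14612988-14613287, minus strand), Mrpl39 (chr16:84735195-84735494, minus strand) and Mrpl9 (chr3:94443086-94443385, plus strand).
Mrpl32: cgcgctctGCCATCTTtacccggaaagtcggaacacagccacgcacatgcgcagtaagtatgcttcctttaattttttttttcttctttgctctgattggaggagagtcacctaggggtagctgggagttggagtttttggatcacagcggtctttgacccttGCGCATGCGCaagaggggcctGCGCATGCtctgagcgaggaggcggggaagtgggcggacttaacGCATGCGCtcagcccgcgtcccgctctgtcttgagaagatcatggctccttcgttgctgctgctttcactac
Mrpl39: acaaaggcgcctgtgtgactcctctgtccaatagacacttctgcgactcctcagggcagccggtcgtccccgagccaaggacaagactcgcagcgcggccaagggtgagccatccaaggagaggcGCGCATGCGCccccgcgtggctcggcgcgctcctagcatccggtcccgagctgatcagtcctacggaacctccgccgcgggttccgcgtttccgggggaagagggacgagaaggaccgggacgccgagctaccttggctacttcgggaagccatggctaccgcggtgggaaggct
Mrpl9: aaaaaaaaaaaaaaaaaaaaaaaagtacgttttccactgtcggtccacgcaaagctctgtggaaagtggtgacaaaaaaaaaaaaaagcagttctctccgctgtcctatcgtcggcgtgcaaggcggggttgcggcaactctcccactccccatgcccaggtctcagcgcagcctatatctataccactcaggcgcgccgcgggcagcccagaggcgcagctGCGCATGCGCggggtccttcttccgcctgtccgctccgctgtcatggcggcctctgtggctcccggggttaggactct

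The window of Mrps12 (chr7:28741772-28742071, minus strand) is shown because it holds both the YY1 and the ETS motif. Mrps12 belongs to the decoding centre of the small subunit. Mrpl46 (chr7:78783040-78783339, minus strand) and Mrps11 (chr7:78782881-78783180, plus strand) are 1 gene of each subunit transcribed away from each other, and their windows overlap; the first holds TATAAA and the second the YY1 motif.
Mrps12: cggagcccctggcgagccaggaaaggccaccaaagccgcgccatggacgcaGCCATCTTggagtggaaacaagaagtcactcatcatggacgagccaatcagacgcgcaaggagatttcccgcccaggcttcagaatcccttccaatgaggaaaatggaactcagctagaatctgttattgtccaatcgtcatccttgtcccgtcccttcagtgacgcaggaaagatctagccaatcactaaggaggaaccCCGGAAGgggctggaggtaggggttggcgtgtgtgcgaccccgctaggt
Mrpl46: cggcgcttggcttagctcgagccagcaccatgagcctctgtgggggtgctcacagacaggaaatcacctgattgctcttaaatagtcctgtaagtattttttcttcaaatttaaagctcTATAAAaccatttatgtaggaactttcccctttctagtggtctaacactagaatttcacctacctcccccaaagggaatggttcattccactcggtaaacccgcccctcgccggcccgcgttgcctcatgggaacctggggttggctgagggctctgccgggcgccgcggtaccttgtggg
Mrps11: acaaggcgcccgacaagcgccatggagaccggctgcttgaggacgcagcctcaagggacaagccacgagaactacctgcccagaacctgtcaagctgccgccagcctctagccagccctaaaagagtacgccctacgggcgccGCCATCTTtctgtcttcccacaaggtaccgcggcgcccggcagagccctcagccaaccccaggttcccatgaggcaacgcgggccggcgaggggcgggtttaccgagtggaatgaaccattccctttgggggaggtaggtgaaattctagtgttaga

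Mrps31 (chr8:22411090-22411389, plus strand) and Mrpl14 (chr17:45686099-45686398, plus strand) had the lowest and the highest ratio of the family between the ESC libraries. Neither window holds a searched motif.
Mrps31: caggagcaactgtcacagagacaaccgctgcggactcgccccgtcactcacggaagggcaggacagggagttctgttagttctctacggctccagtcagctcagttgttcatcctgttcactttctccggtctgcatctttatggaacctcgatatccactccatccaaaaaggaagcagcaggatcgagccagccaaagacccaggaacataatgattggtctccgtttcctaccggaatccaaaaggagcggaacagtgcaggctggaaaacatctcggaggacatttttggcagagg
Mrpl14: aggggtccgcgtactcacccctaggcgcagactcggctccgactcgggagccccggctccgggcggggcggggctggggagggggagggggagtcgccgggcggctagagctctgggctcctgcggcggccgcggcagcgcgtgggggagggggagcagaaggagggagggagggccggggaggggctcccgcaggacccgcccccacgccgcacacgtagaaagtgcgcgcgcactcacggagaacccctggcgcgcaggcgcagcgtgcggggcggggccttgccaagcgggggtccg

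The family was expressed throughout. In every library 74 of the 76 genes were at 1 FPKM or more, and the same 74 counted as measured in each table (1 FPKM in at least 1 of its libraries). The median level of the 76 was 21.6 FPKM in KO ESC and 26.2 FPKM in Flox/Flox ESC. It was 23.8 FPKM in the 4N- PF line and 30.8 FPKM in the 4N+ PF line, and 30.7 FPKM in the 4N- TTF line and 28.6 FPKM in the 4N+ TTF line. Summed over the family, levels made up 0.764% of all FPKM in KO ESC against 0.786% in Flox/Flox ESC. The shares were 0.790% in the 4N- PF line against 0.888% in the 4N+ PF line, and 0.850% in the 4N- TTF line against 0.782% in the 4N+ TTF line. The tables were treated as scaled separately, so levels from different tables are set side by side only as a description.

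Levels spanned a wide range within the family. The genes with the highest mean FPKM over the 6 libraries were all of the large subunit: Mrpl33 (137 FPKM), Mrpl24 (131), Mrpl42 (123), Mrpl13 (91.3) and Mrpl20 (86.8). Mrpl24 encodes a protein at the rim of the tunnel through which the new chain leaves. Mrpl33 ranged from 104 FPKM in the 4N- PF line to 163 FPKM in Flox/Flox ESC, which overlaps the range of Mrpl24 (107 to 171 FPKM). The order of these neighbours is therefore not fixed across libraries. At the other end stood Mrpl41 (mean 4.69 FPKM), Mrps25 (7.38) and Mrps33 (3.65). Mrpl23 (0.09 to 0.48 FPKM) and Mrps36 (0.03 to 0.53 FPKM) were below the minimum in all 6 libraries. Mrpl23, whose product lines the tunnel exit, has a near-identical pseudogene copy, Mrpl23-ps1, so its value is uncertain.

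**Figure D1:**
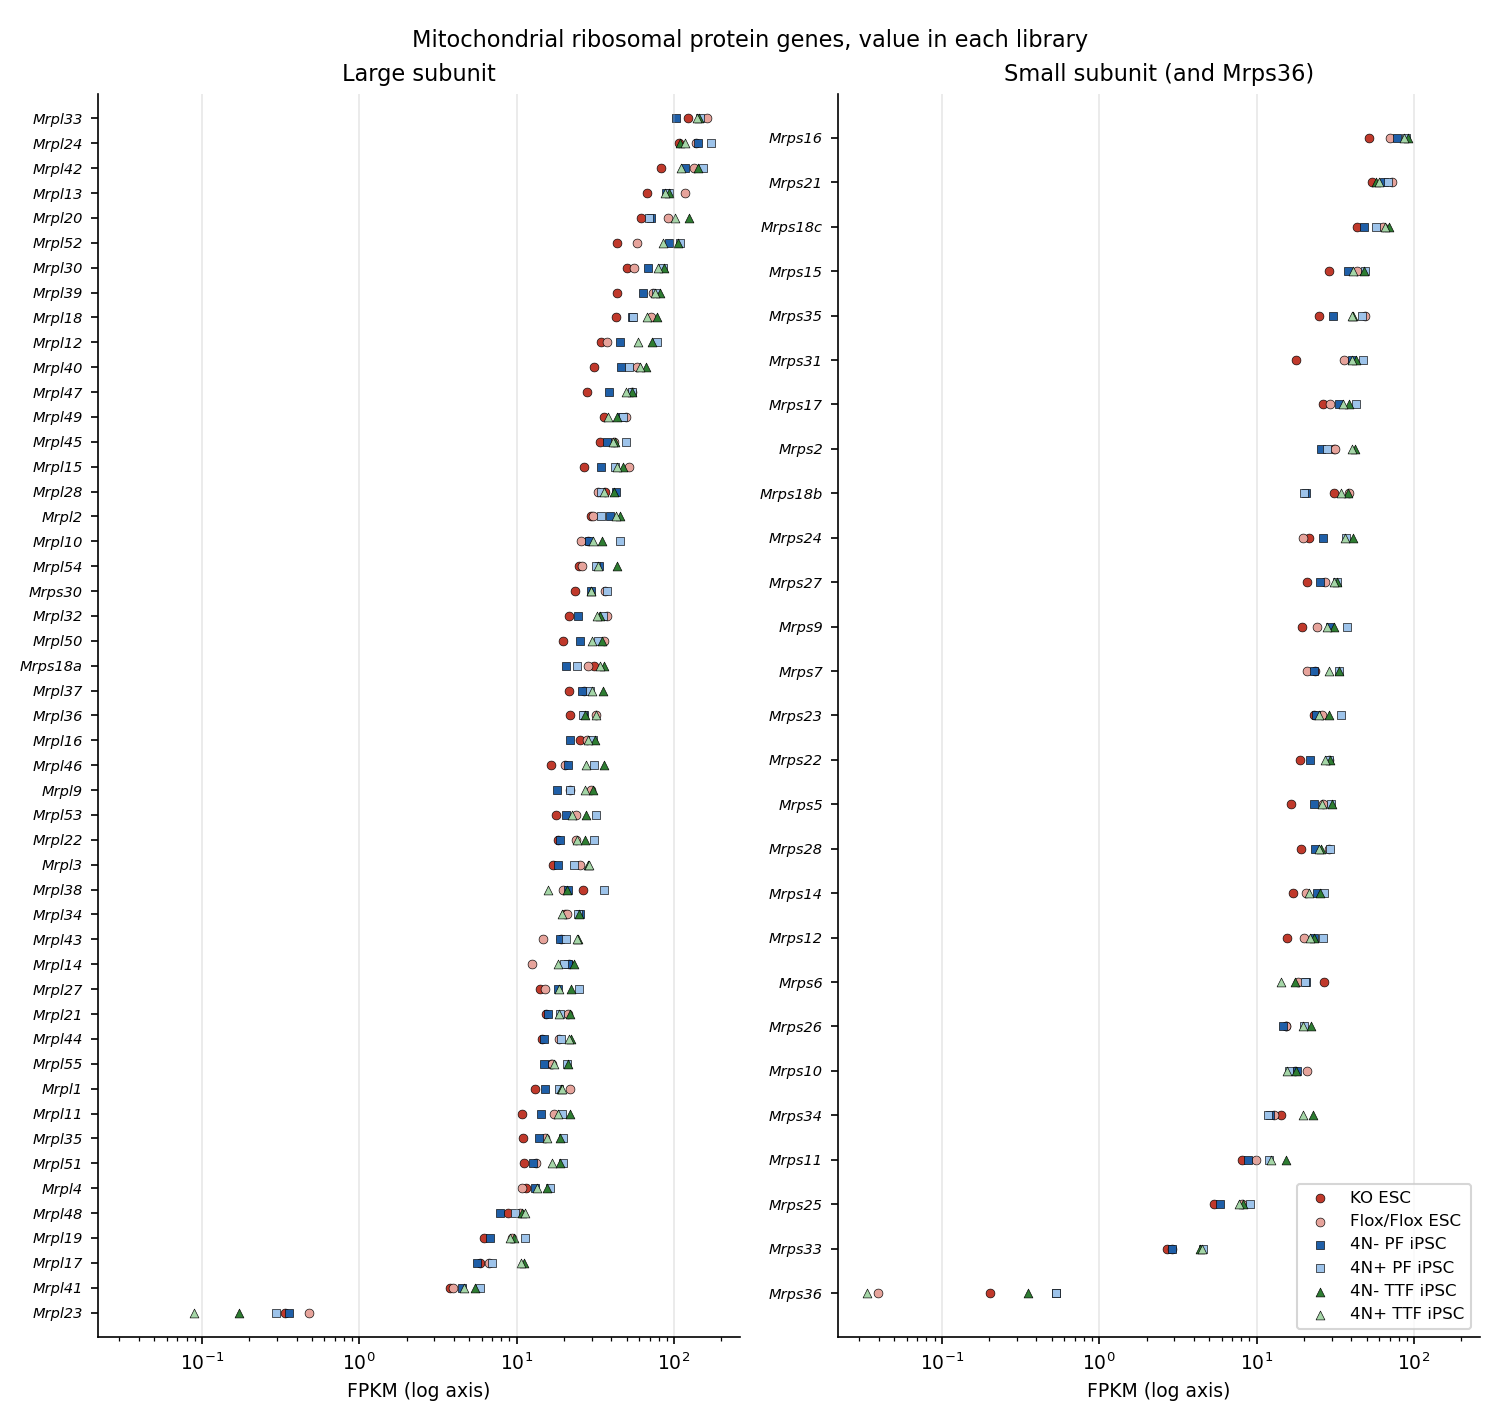
FPKM (log axis) of each of the 76 genes in the 6 libraries, large-subunit genes left and small-subunit genes with Mrps36 right, sorted by mean. Mrpl33, Mrpl24 and Mrpl42 lie highest, and Mrpl23 and Mrps36 lie below 1 FPKM.

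In KO ESC most mitochondrial ribosomal protein genes stood below their level in Flox/Flox ESC. Of the 74 measured, 62 were lower and 12 higher on the log2(FPKM + 1) scale, which understates the change of weakly expressed genes. The background was 51.7% lower and 48.3% higher among the 12086 measured genes. The median log2 ratio was -0.34, a level 1.27-fold lower, against -0.03 over all measured genes. Genes with at least 5 FPKM in each library had themselves a median of -0.20. After centring on it, the family's median was -0.14, with 26 genes higher and 48 lower. At least 1.5-fold lower were 16 genes (21.6%, background 15.9%) and at least 1.5-fold higher was 1 gene (background 17.8%). Among the 6901 genes with at least 5 FPKM in each library 65.2% were lower, 21.5% at least 1.5-fold lower and 8.40% at least 1.5-fold higher, so the family's share at least 1.5-fold lower was that of genes at such levels. With centring the family's counts past 1.5-fold became 7 lower and 3 higher. The share of all genes past 1.5-fold with centring was not computed, so these 2 counts have no background. None reached 2-fold (background 3.72% lower and 7.49% higher).

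The largest decreases spanned both subunits. Mrps31, a small-subunit protein gene with no bacterial counterpart (mm9 chr8:23521812-23540137), had 17.9 FPKM in KO ESC against 35.7 FPKM in Flox/Flox ESC. Its log2 ratio was -0.96, with an approximate counting error of 0.06. Mrps35 of the small subunit (chr6:146991292-147019424) had 25.0 FPKM in KO ESC against 49.2 FPKM in Flox/Flox ESC (log2 ratio -0.95). These were the lowest ratios of the family.

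Among large-subunit genes, Mrpl15 (chr1:4763279-4775807), whose product has a bacterial counterpart, had 26.9 FPKM in KO ESC against 52.0 FPKM in Flox/Flox ESC. Mrpl47 (chr3:32626419-32635677), which encodes the tunnel-exit protein uL29m, had 28.0 FPKM in KO ESC against 54.0 FPKM in Flox/Flox ESC. Both ratios came to -0.92. Mrpl40 (chr16:18872111-18876730), of the central protuberance, had 31.0 FPKM in KO ESC against 58.2 FPKM in Flox/Flox ESC, a log2 ratio of -0.89. The others past 1.5-fold were Mrpl50, Mrpl13, Mrpl32, Mrpl39, Mrpl18, Mrpl1, Mrpl42, Mrps5, Mrpl11, Mrps30 and Mrps22, with log2 ratios from -0.82 to -0.59. The abundant Mrpl13 stood at 67.2 FPKM in KO ESC against 118 FPKM in Flox/Flox ESC. The 16 genes lie on 14 chromosomes.

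A minority went the other way. Mrpl14, whose product sits near the subunit interface (chr17:45823321-45835444), had 21.6 FPKM in KO ESC against 12.5 FPKM in Flox/Flox ESC, a log2 ratio of 0.75 with an approximate counting error of 0.11. Mrps6 had 26.7 FPKM in KO ESC against 18.4 FPKM in Flox/Flox ESC (0.52). Mrpl38, of the central protuberance, had 26.6 FPKM in KO ESC against 19.8 FPKM in Flox/Flox ESC (0.40). Mrpl43 (19.1 FPKM in KO ESC, 14.7 FPKM in Flox/Flox ESC) and Mrps7 (23.6 FPKM in KO ESC, 20.9 FPKM in Flox/Flox ESC), a protein of the small subunit's head, completed the 5 highest. Members of 1 functional neighbourhood thus stood on both sides, as Mrpl40 and Mrpl38 of the central protuberance show.

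Both subunits were lower. The median log2 ratio was -0.36 over 48 measured large-subunit genes (41 lower) and -0.29 over 26 small-subunit genes (21 lower). Genes of proteins with a bacterial counterpart had a median of -0.36 (37 of 44 lower), and those of proteins found only in mitochondrial ribosomes -0.30 (25 of 30 lower). For comparison, nuclear genes of oxidative phosphorylation subunits had a median of -0.17 (57 of 87 lower), and cytosolic ribosomal protein genes had -0.15 (56 of 88 lower). With the same centring as for the family both turned to slightly above 0 (0.03 and 0.06), while both subunits of the mitochondrial ribosome stayed below it (-0.16 for the large and -0.09 for the small). The 7 mitoribosome genes named otherwise (Dap3, Ptcd3, Chchd1, Aurkaip1, Gadd45gip1, Ict1 and Mrp63) were all lower in KO ESC, with a median of -0.37 (5 lower and 2 higher with centring). Ptcd3, a pentatricopeptide-repeat protein of the small subunit, had 41.3 FPKM in KO ESC against 71.1 FPKM in Flox/Flox ESC.

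**Figure D2:**
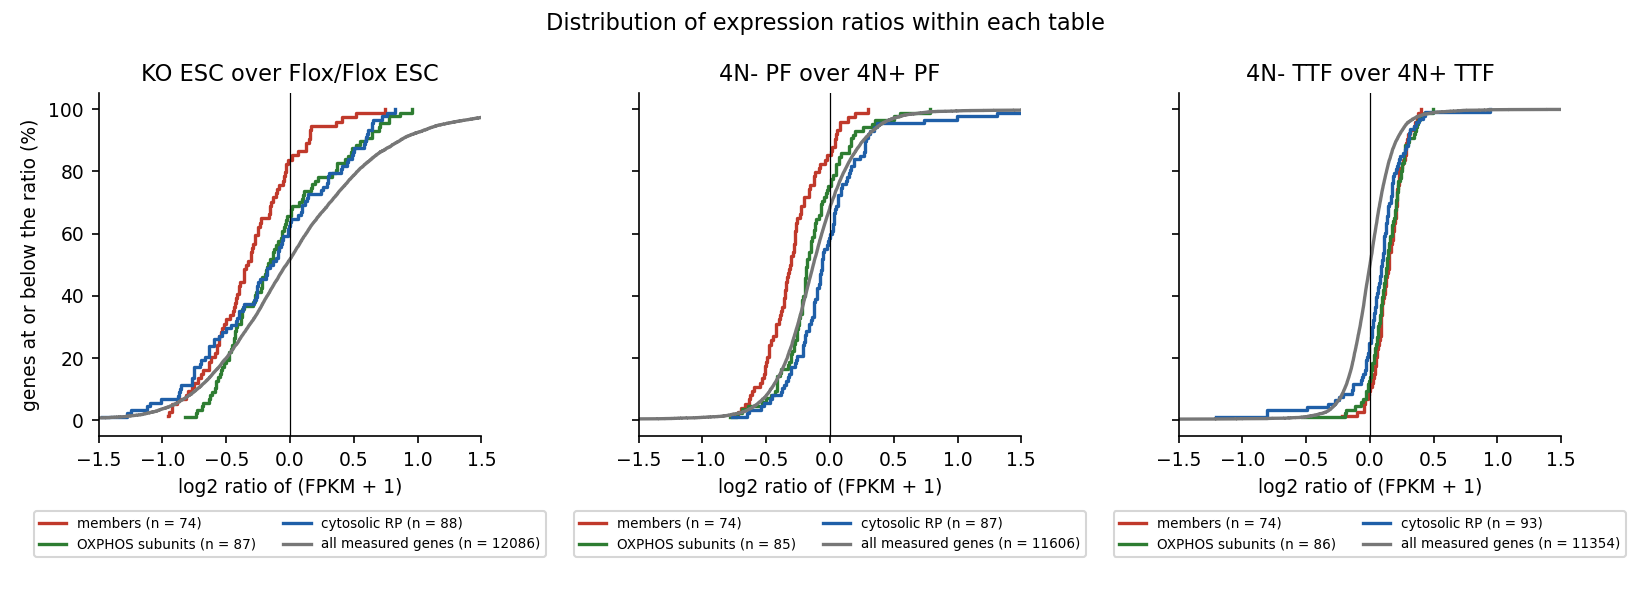
Cumulative share of genes (%) at or below each log2 ratio of (FPKM + 1), for the mitochondrial ribosomal protein genes (members), nuclear oxidative phosphorylation (OXPHOS) subunits, cytosolic ribosomal proteins (RP) and all measured genes, in each of the 3 tables; the horizontal axis leaves out the extremes of all genes. The members' curve lies left of the others around its median in KO ESC over Flox/Flox ESC (median -0.34) and 4N- PF over 4N+ PF (-0.31), and right of that of all genes in 4N- TTF over 4N+ TTF (0.15).

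Other genes of mitochondrial gene expression were mostly lower in KO ESC as deposited, but with centring this held for some lists and turned for others. Of 15 translation factors and related genes 13 were lower, 8 of them at least 1.5-fold (background 15.9%), with a median of -0.61, and 10 of 15 were lower with centring (median -0.40). Lrpprc, which stabilises mitochondrial messages, had 22.3 FPKM in KO ESC against 43.2 FPKM in Flox/Flox ESC. Mtrf1, a release-factor homologue, had 4.57 FPKM in KO ESC against 9.15 FPKM in Flox/Flox ESC. The exceptions were Mtif3 and Oxa1l, an initiation factor and a membrane insertase, with log2 ratios of 0.08 and 0.04.

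Of 20 assembly factors 17 were lower as deposited, with a median of -0.13, above that of genes with at least 5 FPKM in each library (-0.20). With centring 12 were higher and 8 lower, with a median of 0.07. Among them Fastkd2 had 9.08 FPKM in KO ESC against 19.6 FPKM in Flox/Flox ESC, and Mterfd1 10.1 FPKM against 19.4 FPKM. Mpv17l2 was the highest, at 9.0 FPKM in KO ESC against 4.89 FPKM in Flox/Flox ESC. Of 19 genes for charging mitochondrial transfer RNAs 13 were lower as deposited (median -0.11), while with centring 11 were higher and 8 lower (median 0.10). Yars2, the tyrosyl-tRNA synthetase, had 12.0 FPKM in KO ESC against 25.5 FPKM in Flox/Flox ESC. Lars2, the leucyl-tRNA synthetase, stood higher at 46.2 FPKM in KO ESC against 35 FPKM in Flox/Flox ESC.

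Genes for the upkeep and transcription of mitochondrial DNA were split. Of 14, 10 were lower, 6 of them at least 1.5-fold (background 15.9%), and 4 were higher, 2 of them at least 1.5-fold (background 17.8%). With centring 9 were lower and 5 higher. Tfam, which packages and activates mitochondrial DNA, had 14.3 FPKM in KO ESC against 28.6 FPKM in Flox/Flox ESC, and the single-strand binding protein gene Ssbp1 had 24.0 FPKM against 50.3 FPKM. Polg, the replicative polymerase, had 14.4 FPKM in KO ESC against 6.97 FPKM in Flox/Flox ESC, and Top1mt, the mitochondrial topoisomerase, 5.80 FPKM against 2.38 FPKM. Of 8 measured regulators of mitochondrial biogenesis 7 were lower, 3 of them at least 1.5-fold (background 15.9%). With centring 5 were lower and 3 higher. The exception as deposited was Esrra, which encodes the estrogen-related receptor alpha. It stood at least 1.5-fold higher, at 3.24 FPKM in KO ESC against 1.78 FPKM in Flox/Flox ESC (log2 ratio 0.61). Nrf1 itself had 16.1 FPKM in KO ESC against 18.2 FPKM in Flox/Flox ESC, Mycn 20.3 FPKM against 55.9 FPKM, and Myc 3.14 FPKM against 7.61 FPKM.

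Markers of cell state moved with this comparison. All 10 pluripotency markers were lower in KO ESC (Nanog only marginally), with a summed level of 1501 FPKM against 2769 FPKM in Flox/Flox ESC. Of 9 measured trophoblast markers 8 were at least 2-fold higher (background 7.49%). The summed level over the list was 1318 FPKM in KO ESC against 54.2 FPKM in Flox/Flox ESC. Ascl2 was the exception, with 1.65 FPKM in KO ESC against 1.81 FPKM in Flox/Flox ESC. The early trophoblast markers Cdx2 and Elf5 were below 1 FPKM in both libraries. Of the fibroblast and feeder markers all 3 measured of 10 (Thy1, S100a4 and Acta2) were at least 2-fold higher (background 7.49%). The summed level over the list was 11.5 FPKM in KO ESC against 3.08 FPKM in Flox/Flox ESC. Lum was at 0 in both, and Dcn, below the minimum, was lower (0.032 FPKM in KO ESC, 0.114 FPKM in Flox/Flox ESC). The part of these markers in the family's ratios was not tested, and in bulk RNA fewer cells of a type cannot be told apart from less RNA per cell.

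GC content of the transcript also moved with the ESC ratio. Over the 74 measured genes Pearson's r was 0.56 and Spearman's rho 0.53, and over 6009 other genes with at least 5 FPKM in each library they were 0.44 and 0.48. These correlations run across genes of the same library pair and describe it only. In the lowest of 3 GC bins with equal numbers of other genes (below 46.6% GC) all 16 family members were lower, with a median of -0.57 against -0.46 for the other genes. In the middle bin 28 of 30 were lower, with a median of -0.36 against -0.25. In the highest bin (above 52.5% GC) 18 of 28 were lower, with a median of -0.08 against 0.10. The family's median was thus below that of the other genes in each bin. Mrpl14 has 59.4% GC and Mrps31 44.2%.

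**Figure D3:**
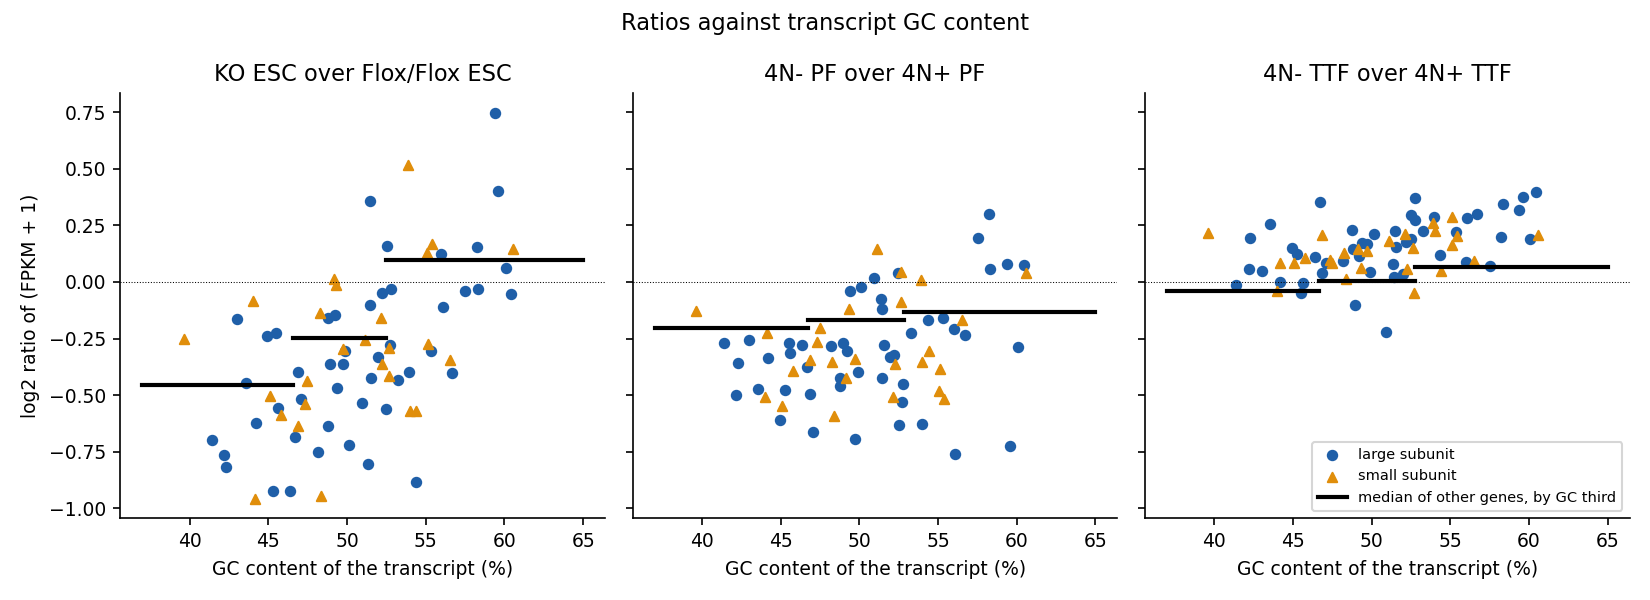
Log2 ratio of (FPKM + 1) of each measured gene of the family against the GC content (%) of its transcript, in each table, with the median of other genes drawn across each of 3 GC bins. In KO ESC over Flox/Flox ESC the members' medians run from -0.57 in the lowest bin to -0.08 in the highest, and in 4N- TTF over 4N+ TTF from 0.08 to 0.22.

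In the PF pair the family stood lower in the 4N- line. Of the 74 measured genes 63 were lower and 11 higher (background 68.1% lower and 31.5% higher among 11606 genes). The median log2 ratio was -0.31, a level 1.24-fold lower, against -0.13 over all measured genes. Centred on the median of genes with at least 5 FPKM in each library (-0.17), it was -0.14, with 19 genes higher and 55 lower. At least 1.5-fold lower were 8 genes (10.8%, background 4.85%), none was 1.5-fold higher (background 1.98%), and none reached 2-fold in either direction (background 0.974% lower and 0.577% higher). With centring 1 member was past 1.5-fold, a count for which no centred background was computed. Nuclear oxidative phosphorylation genes had a median of -0.18 (64 of 85 lower) and cytosolic ribosomal protein genes -0.06 (51 of 87 lower). With centring the first was near 0 (-0.02) and the second above it (0.10). Mitoribosome genes of other names had a median of -0.38 (7 of 7 lower). Translation factors had -0.34 (14 of 15) and mitochondrial DNA genes -0.33 (11 of 13). With centring these lists stayed below 0 (-0.22, -0.17 and -0.17). Assembly factors had -0.22 (18 of 20 lower), tRNA charging genes -0.17 (14 of 19) and biogenesis regulators -0.22 (8 of 9). With centring they had -0.06, -0.01 and -0.05.

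At the median both subunits were lower in the 4N- PF line. Large-subunit genes had -0.30 (41 of 48 lower) and small-subunit genes -0.34 (22 of 26 lower). The 5 lowest ratios belonged to large-subunit genes. Mrpl12 encodes the multicopy stalk protein that recruits translation factors (mm9 chr11:120345983-120350068). It had 45.6 FPKM in the 4N- PF line against 78.0 FPKM in the 4N+ PF line, a log2 ratio of -0.76 with an approximate counting error of 0.04. Mrpl10, the protein that anchors Mrpl12 to the ribosome (chr11:96902900-96910527), had 28.8 FPKM in 4N- against 45.2 FPKM in 4N+ (-0.63). Both stalk genes were therefore among the 5 lowest.

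Mrpl38 (chr11:115993131-116000182) had 21.3 FPKM in the 4N- PF line against 35.8 FPKM in the 4N+ PF line (-0.72). Mrpl22, of the tunnel wall (chr11:57985156-57993082), had 18.9 FPKM in 4N- against 31.2 FPKM in 4N+ (-0.69). Mrpl19 (chr6:81873663-81915943) had 6.76 FPKM in 4N- against 11.3 FPKM in 4N+ (-0.66). Mrpl53, Mrpl51 and Mrps35 completed the 8, with log2 ratios of -0.63, -0.61 and -0.59. In the ESC table Mrpl10 and Mrpl38 had stood higher in KO ESC, with log2 ratios of 0.16 and 0.40, while Mrps35 was at least 1.5-fold lower in both tables.

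All 8 of these genes lie on chromosome 6 or 11, where other genes were lower too. The 10 family members on chromosome 11 were all lower, with a median of -0.51, against -0.44 for 626 other genes there, of which 94.4% were lower. The 7 on chromosome 6 were all lower, with a median of -0.59, against -0.42 for 320 other genes (92.5% lower). Of the 17 members on these chromosomes 47.1% were at least 1.5-fold lower, against 16.9% of 1519 other measured genes. These chromosomes were picked with the 8 genes known, which raises the members' share. The other measured genes include weakly expressed ones, whose change the log2(FPKM + 1) scale understates. The 2 shares are therefore a description and no test.

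Chromosome 17 went the other way. Its 8 members had a median of 0.06, with 6 of them higher, against 0.22 for 327 other genes, of which 11% were lower. The highest ratios of the family included 4 of them. Mrpl28 had 42.6 FPKM in the 4N- PF line against 34.4 FPKM in the 4N+ PF line (0.30). Mrpl2, of the catalytic region of the large subunit, had 39.5 FPKM in 4N- against 34.4 FPKM in 4N+ (0.19). Mrps10 had 18 FPKM against 16.2 FPKM (0.15), and Mrpl14 21.3 FPKM against 20.1 FPKM (0.08). Mrps34, Mrps18b and Mrpl18 were close to level (0.04, 0.04 and -0.02), and Mrps18a was lower (-0.21). Mrpl54, on chromosome 10, was the other of the 5 highest, with 33.6 FPKM in 4N- against 31.9 FPKM in 4N+.

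Outside chromosomes 6, 11 and 17, 44 of 49 measured members were lower, with a median of -0.28, and none was past 1.5-fold. The 9494 measured genes there had a median of -0.12, and 68.3% of them were lower. Few of them were past 1.5-fold either (3.08% lower and 1.83% higher). Set against the median of other genes on its own chromosome, each member gave a difference that was below 0 for 60 and above 0 for 14 of the 74, with a median of -0.13. In the ESC table the same calculation gave 48 below and 26 above (median -0.14), and in the TTF table it gave values above 0 for 67 and below 0 for 7 (median 0.14). Whether the lines differ in chromosome number was not tested.

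**Figure D4:**
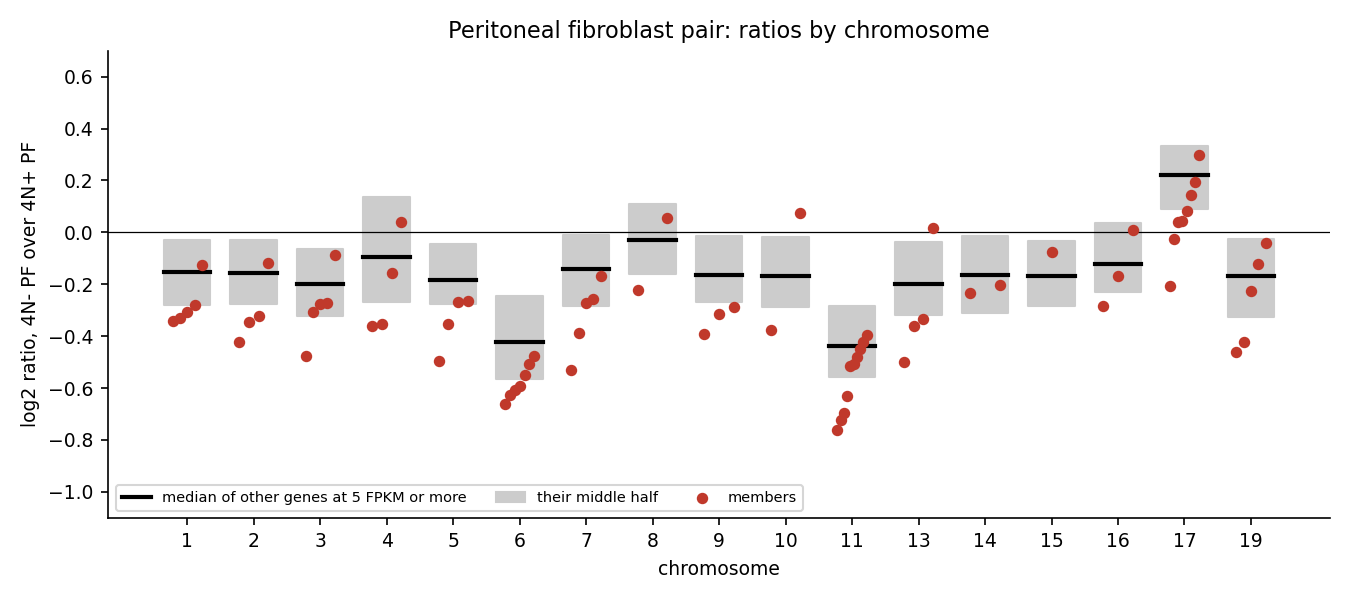
Log2 ratio of (FPKM + 1), 4N- PF over 4N+ PF, for each measured member (points) by chromosome, with the median (line) and the middle 50% (grey box) of other genes with at least 5 FPKM in each library. Chromosomes 6 and 11 lie lowest (medians of other genes -0.42 and -0.44) and chromosome 17 highest (0.22); members follow their chromosome and mostly lie below its line.

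Fibroblast markers also differed between the PF lines. All 6 measured of 10 were lower in the 4N- PF line, 5 of them at least 2-fold (background 0.974%). The summed level of the list was 6.18 FPKM in 4N- against 63.9 FPKM in 4N+. S100a4 alone had 0.153 FPKM in 4N- against 40.1 FPKM in 4N+, while Lum was at 0 in both. Their part in the family's ratios was not tested. Summed pluripotency markers were 2589 FPKM in the 4N- PF line against 2679 FPKM in the 4N+ PF line. GC content moved less with the ratio than in the ESC (Pearson's r 0.31 and Spearman's rho 0.28 over 74 members, 0.10 and 0.11 over 6257 other genes).

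In the TTF pair nearly the whole family stood slightly higher in the 4N- line. Of the 74 measured genes 67 were higher and 7 lower (background 50.1% higher and 49.9% lower among 11354 genes). The median log2 ratio was 0.15, a level 1.11-fold higher, against 0.00 over all measured genes. None was 1.5-fold higher or lower (background 0.828% higher and 0.907% lower), and none 2-fold (background 0.185% higher and 0.564% lower). Among the 7193 genes with at least 5 FPKM in each library 53.2% were higher. The differences were small in size, with the middle of the family between 0.07 and 0.22 (quartiles). Their median approximate counting error was 0.04.

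Mrpl54 had 43.7 FPKM in the 4N- TTF line against 32.9 FPKM in the 4N+ TTF line, the highest log2 ratio of the family (0.40). Mrpl38 had 20.9 FPKM in 4N- against 15.9 FPKM in 4N+ (0.38), and Mrpl46 had 36.0 FPKM against 27.6 FPKM (0.37). Both encode central protuberance proteins. Mrpl42 had 143 FPKM in 4N- against 112 FPKM in 4N+, and Mrpl34 had 25.1 FPKM against 19.5 FPKM (0.35 each).

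The 7 lower genes included Mrpl36, a small protein with a bacterial counterpart, with 27.2 FPKM in 4N- against 31.9 FPKM in 4N+ (-0.22). The others were close to level: Mrpl24 with 110 FPKM in 4N- against 118 FPKM in 4N+ (-0.10), Mrpl48 (-0.05), Mrps21 (-0.05), Mrps33 (-0.04), Mrpl1 (-0.02) and Mrpl3 (-0.01). Large-subunit genes had a median of 0.16 (43 of 48 higher) and small-subunit genes 0.13 (24 of 26 higher).

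Related families were higher in the 4N- TTF line as well. Nuclear oxidative phosphorylation genes had a median of 0.13 (74 of 86 higher) and cytosolic ribosomal protein genes 0.09 (70 of 93 higher). The 7 mitoribosome genes of other names were all higher, with a median of 0.11. Mitochondrial translation factors were not: 5 of 15 were higher, with a median of -0.02. Genes for mitochondrial DNA upkeep and transcription had 8 of 14 higher (median 0.01), assembly factors 13 of 20 (0.07) and tRNA charging genes 12 of 19 (0.04). With centring 7 of 14 of the mitochondrial DNA genes were higher (median 0.00).

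Transcript length and GC content moved with the TTF ratio. Spearman's rho with length was -0.34 over the 74 members and -0.40 over 6259 other genes. For the members it was similar in the other pairs. It was -0.29 in the ESC pair (-0.12 over 6009 other genes) and -0.30 in the PF pair (0.01 over 6257 other genes). The longest annotated transcripts of the family were mostly short, from 418 to 7300 bases with a median of 1224.5, against 2613 over 18244 matched genes. They can be longer than the transcripts that were counted. Members of at most 1000 bases had a median of 0.21 against 0.13 for 376 other genes of that length. Between 1000 and 2000 bases it was 0.15 against 0.08, between 2000 and 4000 bases 0.09 against 0.01, and above 4000 bases 0.08 against -0.06. By GC content the members' median was 0.08 in the lowest bin, 0.14 in the middle and 0.22 in the highest, against -0.04, 0.00 and 0.07 for other genes. The family's median was above that of other genes in each of these bins. The part of length and GC content in the ratios was not tested.

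The 4N- and 4N+ lines were therefore ordered differently in the 2 parental cell types, a difference that was not tested. Of the 74 genes, 57 were lower in 4N- PF and higher in 4N- TTF, relative to their 4N+ lines (77.0%). The background was 35.8% of 10975 genes measured in both pairs, and 41.5% of 6736 genes with at least 5 FPKM in all 4 libraries. With centring the count was 49 (66.2%), against 23.0% of all measured genes and 27.7% of the 6736. There were 10 higher in both (13.5%, background 13.8%; Mrpl14, Mrpl2, Mrpl20, Mrpl28, Mrpl34, Mrpl54, Mrps10, Mrps18b, Mrps34 and Mrps6), of which 6 lie on chromosome 17. Lower in both were 6 (8.11%, background 33.5%; Mrpl1, Mrpl24, Mrpl3, Mrpl48, Mrps21 and Mrps33), and Mrpl36 was higher in 4N- PF and lower in 4N- TTF (background 16.6%). Mrpl38, Mrpl46 and Mrpl53 were among the 10 largest ratios in size in both pairs, with opposite signs. In all, 49 genes were lower in KO ESC, lower in 4N- PF and higher in 4N- TTF (66.2%, background 21.1%). With centring 33 had this pattern (44.6%, against 11.2% of all measured genes). Of 6387 genes at 5 FPKM or more, 28.5% had it as deposited and 16.0% with centring.

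**Figure D5:**
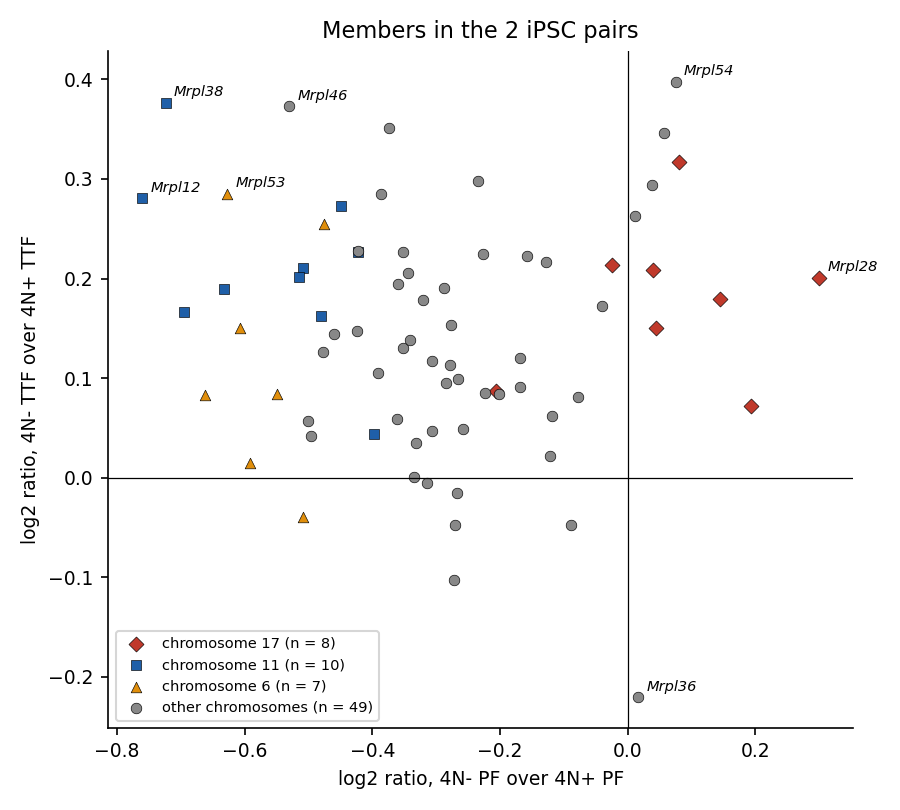
Log2 ratio of (FPKM + 1), 4N- over 4N+, in the PF pair (horizontal) and the TTF pair (vertical) for the 74 measured genes, with symbols for chromosomes 6, 11 and 17. The upper left part holds 57 genes; the 7 members of chromosome 6 and the 10 of chromosome 11 all lie left of 0.

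A fit of 4N- against 4N+ over the 4 iPSC libraries, with the parental cells as a block, called none of the 74 members (limma, smallest Benjamini-Hochberg adjusted p 0.999, and 0 at an unadjusted p below 0.05). It called 14 of all 11985 genes tested (0.117%), and 446 (3.72%) at an unadjusted p below 0.05. The fit has 1 residual degree of freedom, to which limma adds 9.54 prior degrees of freedom from the variance trend over all genes tested. These p-values therefore rest mostly on that trend and only in part on a gene's own spread between the 2 pairs. No replicate spread within a pair enters them. The median difference of the members was -0.09, and its size and direction changed between fits. Leaving out 1 library, and with it the block, gave 0.09 without the 4N- PF library and -0.28 without the 4N- TTF library. It gave -0.04 without the 4N+ PF library and -0.15 without the 4N+ TTF library. These values also compare separately scaled tables, so the part of a single library cannot be told apart. With the block and each table centred the median difference was -0.01. In the authors' deposited table no member carries the significance call in any comparison, against 1.44% of tested genes in the ESC table, 0.537% in the PF table and 0.301% in the TTF table. The smallest p-values of members in the authors' deposited table were 0.102 for Mrps31 in the ESC comparison (q-value 0.698), 0.0105 for Mrpl12 in the PF comparison (q-value 0.519) and 0.0461 for Mrpl42 in the TTF comparison (q-value 1.0).

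Ratios were also set against the promoter motifs. The 3 genes with the full NRF1 site, Mrpl32, Mrpl39 and Mrpl9, had a median log2 ratio of -0.75 in KO ESC over Flox/Flox ESC, against -0.30 for the 62 other measured genes with a window. The 8 with the NRF1 core, which include these 3, had a median of -0.38, against -0.30 for the 57 without it. The 5 with TATAAA had -0.16, against -0.36 for the 60 without. For TATAAA the order was reversed in the PF pair (-0.46 with and -0.31 without), and in the TTF pair the medians were 0.14 and 0.15. For the full NRF1 site the medians in the PF pair were -0.28 and -0.33, and in the TTF pair 0.09 and 0.15. For the 24 genes with the ETS motif and the 41 without, the ESC medians were -0.35 and -0.30. Their PF medians had the other order (-0.27 and -0.33), and their TTF medians were 0.10 and 0.17. For the 12 with the YY1 motif and the 53 without, the ESC medians were -0.35 and -0.30. Their PF medians were -0.37 and -0.31, and their TTF medians 0.17 and 0.15. The divergent neighbours Mrpl46 and Mrps11 had log2 ratios of -0.28 and -0.27 in the ESC pair, -0.53 and -0.39 in the PF pair, and 0.37 and 0.29 in the TTF pair. Mrps12 had -0.35, -0.17 and 0.09 in the same order of pairs.

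Some values could be shared with other loci. A near-identical transcript (at least 95% identity over at least 50% of the length) exists for 10 members: Mrpl22, Mrpl23, Mrpl27, Mrpl42, Mrpl53, Mrps10, Mrps18b, Mrps21, Mrps25 and Mrps34. For Mrps25 it belongs to Nr2c2 and for Mrps34 to Mapk8ip3, so a match is not always a copy of the gene. The locus of 9 members overlaps another entry of the table. Mrpl49 overlaps Syvn1, which had a log2 ratio of 1.05 in KO ESC over Flox/Flox ESC, against -0.47 for Mrpl49 (35.7 FPKM in KO ESC, 49.9 FPKM in Flox/Flox ESC). Mrps25 overlaps Nr2c2, with ratios of -0.50 for Mrps25 and -0.67 for Nr2c2. The use of strand in the counting is not stated, so reads of overlapping genes may have been shared.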

How the data were processed

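Per the submitters' processing notes, CASAVA and TopHat2 were used with mm9. Which program and annotation gave the gene values, and all versions, is not given in the sources used here. The authors deposited 3 tables, each with 1 value per library for 2 libraries, and for each gene the p-value, q-value and a call of significance, per the file headers. The values were read as FPKM as deposited, because they were not whole, never negative and scaled with gene length in single-exon receptor genes. The log2 fold changes, test statistics and other columns deposited by the authors (scores and text) entered no result.

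Ratios were formed within a table as log2 of (FPKM + 1), over genes at 1 FPKM or more in at least 1 library. Genes named in the text are the 5 highest and lowest ratios per table, the 5 highest and lowest mean levels, members on chromosome 17, members with large ratios in both iPSC pairs, and for each list the 2 highest and 2 lowest ratios of the ESC table, the ratios among genes at 5 FPKM or more in at least 1 library; further names were chosen after their values were seen. The members and lists were chosen with earlier results of these data known. The only test was limma 3.58.1 in R 4.3.3 over the 4 iPSC libraries with trend and parental cells as a block; the pairing comes from the parental cell type and shared table, and no label says that lines of a pair share an animal. The fit was also run on simulated data in which a changed gene had the same 4N- effect in both pairs. That setting differs from the opposite directions seen here, so the run does not show how the fit behaves on them. With 1 library per condition, no other p-value was computed. Effective depth and a mean fragment length of 204 bases were recovered from single-exon receptor genes, of whose values 98.3% to 100.0% per library came within 0.05 of a whole fragment. Approximate fragment numbers and counting errors use GENCODE M21 transcript lengths and cover counting error only. For each gene the longest protein-coding transcript with a RefSeq mRNA was taken, which need not be the one counted. That of Mrps26 has 4278 bases, more than its deposited locus (chr2:130389493-130391130). Where the transcript is too long, fragment numbers are too high and counting errors too low. GC content and the search for near-identical transcripts used the same transcripts (76 members and 18244 genes matched by symbol). Promoter windows came from RefSeq. Gene coordinates are mm9 as deposited, with starts counted from 1. Python 3.11.15, pandas 2.3.3 and numpy 2.4.6 were used.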

Additional observations from a re-analysis of the deposited data

Results flagged for a closer look

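The ratio of 4N- over 4N+ lines pointed in opposite directions in the PF and the TTF pair for the family as a whole and for each member at least 1.5-fold lower in the PF pair. Each pair has 1 library a line, and the difference between the pairs was not tested. The median log2 ratio of the 74 measured genes was -0.31 in the PF pair and 0.15 in the TTF pair. On chromosome 11, Mrpl12 had -0.76 in the PF pair and 0.28 in the TTF pair, and Mrpl38 had -0.72 and 0.38. Mrpl22 had -0.69 in the PF pair and 0.17 in the TTF pair, and Mrpl10 had -0.63 and 0.19. On chromosome 6, Mrpl19 had -0.66 in the PF pair and 0.083 in the TTF pair, Mrpl53 -0.63 and 0.29, Mrpl51 -0.61 and 0.15, and Mrps35 -0.59 and 0.014. The other genes of these chromosomes were lower in the 4N- PF line as well, with medians of -0.44 and -0.42.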

How the results depend on the processing

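The median log2 ratio of the family kept its direction in each of the 3 tables under every alternative run. Centring on the median of genes with at least 5 FPKM in each library moved it to -0.14 in the ESC table (26 higher, 48 lower) and to -0.14 in the PF table (19 higher, 55 lower). It left 10 members past 1.5-fold in the ESC table (3 higher and 7 lower, against 17 uncentred) and 1 in the PF table (against 8). The shares of all genes past 1.5-fold with centring were not computed. An alternative without chromosomes 6, 11 and 17 was chosen after the data were seen. In it 0 members of the PF pair were past 1.5-fold (background 3.08% lower and 1.83% higher), and the median was -0.28. Other runs changed the pseudocount or minimum, left out members with a near-identical transcript of another gene, or added the mitoribosome genes of other names. They kept the ESC median between -0.36 and -0.32, the PF median between -0.32 and -0.31 and the TTF median between 0.14 and 0.15. In the iPSC fit 0 members were called with the replicate block and under each alternative, while genes called among all those tested numbered 14 with the block, 3 with no replicate block, 0 with no minimum, 67 with a minimum of 5 FPKM, and 1 to 17 when 1 library was left out. Fits without the block compare values across separately scaled tables, and the cause of these shifts was not tested. With 1 library per condition, depth limits most single genes little (median approximate counting error of 0.04 to 0.06 on the log2 scale). Variation between cultures was not measured.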
